A study of Rattus norvegicus with 14 samples.

Results

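The islet microRNAs (miRNAs) miR-375 and miR-7 were followed across pancreatic islets of control and pregnant rats. All miRNAs on the array whose name, without species prefix and arm or star suffix, is miR-375, miR-7a or miR-7b were taken, which gave 4 of the 350 miRNAs on the array: rno-miR-375, rno-miR-7a, rno-miR-7a* and rno-miR-7b, written below without the rat prefix. The rule uses names only, but it was set with earlier results of these data known. The study profiled total RNA of islets from female rats on 1-colour Agilent miRNA arrays, with 4 arrays from control females and 4 from females on day 14 of gestation. The labels give no strain, age, treatment or number of animals per array, and both groups are whole islets of unmanipulated females as far as the labels say. Replicates are labelled biological, but no label ties an array to an animal, so that a p-value here reflects array-to-array spread, part of which may be technical. Arrays of a beta-cell line, which measured messenger RNA, are not used here.

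MiRNAs are short RNAs that are cut from a hairpin precursor and loaded into Argonaute proteins, where bases 2 to 8, the seed, pair with target messenger RNAs and lower their output. One strand of the hairpin usually stays loaded and the other, in older naming marked with a star, is mostly degraded. In mouse, miR-375 restrains insulin secretion, with myotrophin among its targets, and its loss reduces beta-cell mass. In mouse beta cells miR-7a acts as a brake on insulin secretion, and both miRNAs are enriched in endocrine cells. Rodent islets enlarge during gestation, and the comparison asked whether the miRNA content of the islets differs at day 14.

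The mature sequences are shown because they set which members share targets and which probes could take up each other's miRNA. They are those of RefSeq for rat build GRCr8, 5′ to 3′, with the seed in capitals. The array's miR-375 is the 3p arm in current naming, miR-7a the 5p arm and miR-7a* a 3p arm whose precursor copy the array's name does not give, so both copies are printed.
miR-375-3p: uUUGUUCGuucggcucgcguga
miR-7a-5p: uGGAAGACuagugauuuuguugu
miR-7b: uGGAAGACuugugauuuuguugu
miR-7a-1-3p: aCAACAAAucacagucugccau
miR-7a-2-3p: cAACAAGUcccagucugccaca

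The miR-7a and miR-7b guides are both 23 bases long and share the seed GGAAGAC, which 2 of the 693 named rat mature miRNAs in that table carry, namely this pair. They are identical at 22 positions and differ by A10U, counted from 1 at the 5′ end with the miR-7a base first, outside the seed. The seed UUGUUCG of miR-375 occurs in no other rat miRNA of the table, so miR-375 and miR-7 have unrelated seeds. With 1 differing base the miR-7a and miR-7b probes may take up each other's miRNA, which was not tested.

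The precursors show where the arms lie, with each annotated mature arm in capitals.
mir-375: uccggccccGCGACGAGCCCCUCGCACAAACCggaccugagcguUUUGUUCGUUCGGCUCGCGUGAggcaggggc
mir-7a-1: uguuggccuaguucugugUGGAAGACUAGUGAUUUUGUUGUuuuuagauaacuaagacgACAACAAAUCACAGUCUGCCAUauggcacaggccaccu
mir-7a-2: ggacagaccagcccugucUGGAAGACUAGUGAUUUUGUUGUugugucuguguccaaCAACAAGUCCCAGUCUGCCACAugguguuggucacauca
mir-7b: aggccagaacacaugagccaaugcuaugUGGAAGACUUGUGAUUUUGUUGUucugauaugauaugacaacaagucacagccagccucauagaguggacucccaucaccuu

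In build GRCr8 the mir-375 gene lies at chr9:83906582-83906656 on the minus strand and overlaps the annotated span of Cryba2, a lens crystallin gene. The first miR-7a precursor lies at chr17:6278692-6278788 on the plus strand, inside the gene of Hnrnpk, an RNA-binding protein. The second, listed by RefSeq under the symbol Mir8, lies at chr1:142215800-142215894 on the plus strand inside an annotated long non-coding RNA. The miR-7b precursor, listed under the symbol Mir9, lies at chr9:1167436-1167545 on the plus strand inside an annotated ribosomal protein pseudogene. The miR-7a-5p arm has the same sequence in both miR-7a precursors, so the array cannot assign the miR-7a signal to one of these genes. The mir-7b entry has 1 annotated arm, and its minor strand was not analysed here.

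The islet arrays differed in total signal, with a sum over all miRNAs of 148467 to 229760 per array and 157 to 188 miRNAs flagged as detected. Each array was scaled to the 75th percentile of its 153 miRNAs that were detected throughout, and the scaled values are given as normalised signals. All 4 members were detected on all 8 arrays and entered the test across 171 miRNAs. A log2 change is pregnant minus control on the log2 normalised signal, fitted with limma, and it passed the test where its p, after Benjamini-Hochberg adjustment over the 171 miRNAs, was under 0.05. Probes differ in efficiency, so an order of signals is not an order of molecule numbers.

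MiR-7a gave the highest signal of all 350 miRNAs on each of the 8 arrays. MiR-375 ranked between 3 and 6, miR-7b between 27 and 43, and miR-7a* between 143 and 165. Together the 4 members held 16.1% ± 1.41 of the summed miRNA signal in controls and 15.4% ± 1.47 in pregnancy (SD, n = 4 each), from 13.6% to 17.95% on single arrays. MiR-7a alone held 10.4% ± 0.731 in control islets and 9.90% ± 0.941 in pregnancy, and miR-375 held 5.08% ± 0.602 and 4.98% ± 0.526 (SD, n = 4 each). MiR-7b held 0.606% ± 0.0829 and 0.480% ± 0.0446, and miR-7a* 0.0141% ± 0.0019 and 0.0157% ± 0.0013 (SD, n = 4 each).

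**Figure D1:**
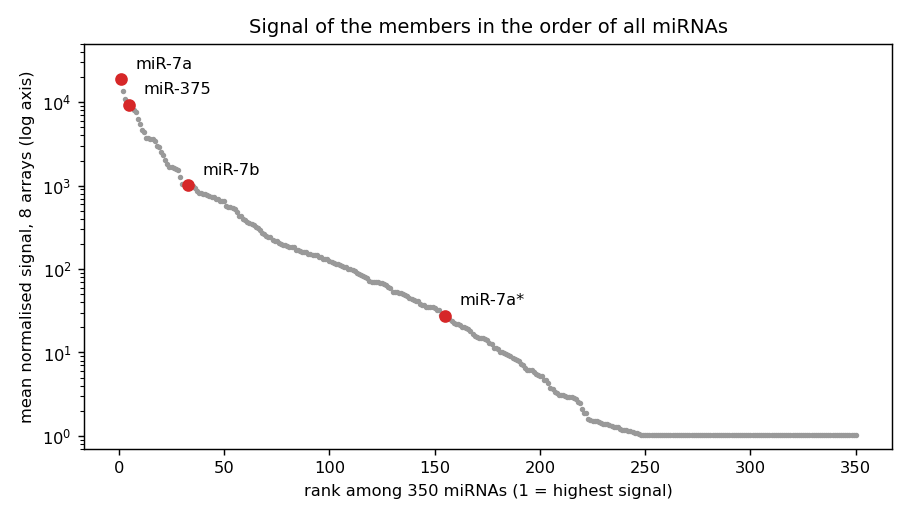
Mean normalised signal over the 8 islet arrays (log axis) against rank for all 350 miRNAs (grey points), with the 4 members as labelled red points. MiR-7a is at rank 1, miR-375 at rank 5, miR-7b at rank 33 and miR-7a* at rank 155.

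In the mean order miR-7a was followed by miR-29b at a normalised signal of 13600 and miR-23b at 11026, and it exceeded both on 8 of 8 arrays. MiR-375 followed miR-23b and miR-200c (10132), each of which it exceeded on 1 of 8 arrays. Below miR-375 stood let-7f (8826), which it exceeded on 4 of 8 arrays, and let-7c (8113), which it exceeded on all 8. The order of miR-375 and let-7f was thus not settled by these arrays. Around miR-7a*, miR-181c (28.4) and miR-484 (28.1) stood above it and miR-299 (27.0) below it, and it exceeded them on 3, 4 and 5 of 8 arrays, so that its place among them was not settled either.

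MiR-375 differed little between the groups. Its normalised signal was 9108, 8614, 11031 and 9322 in control replicates 1 to 4 and 10198, 7836, 8779 and 9820 in pregnant replicates 1 to 4. Control replicate 3 was the highest array and pregnant replicate 2 the lowest, and the groups overlapped. The log2 change was -0.06 (SE 0.11, 95% interval -0.32 to 0.21, limma adjusted p = 0.761). A change within that interval, in either direction, could not be told from none on these arrays. The share of miR-375 in the summed signal differed by -0.101 percentage points (SE 0.400, exact permutation p = 0.771, 2-sided, adjusted p = 0.771 over 6 ratios and shares).

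The array names above the detection flags end in 2 numbers, the first of which was read as the row on the slide; no label or header says what it stands for. Read so, row 1 held control replicate 2 and pregnant replicates 2, 3 and 4, and row 2 the others. The log2 signal of miR-375 ran from 12.94 to 13.26 in row 1 and from 13.15 to 13.43 in row 2, so the rows overlapped, and a difference between them was not tested. Within rows 1 and 2 the log2 difference was 0.03 and 0.06, and the difference in share 0.323 and 0.260 percentage points, each positive where the pooled value was negative. Each of these sets 1 array against 3 and is smaller in size than the SE of the pooled difference, so they do not settle a sign. With row as a block limma gave 0.04 for miR-375 (adjusted p = 0.856).

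MiR-7a, the most abundant signal, also differed little between the groups. Its normalised signal was 18792, 18365, 21114 and 19447 in control replicates 1 to 4 and 20115, 15545, 18124 and 19084 in pregnant replicates 1 to 4. Pregnant replicate 2 was the lowest array and control replicate 3 the highest, and the groups overlapped. The log2 change was -0.10 (SE 0.10, 95% interval -0.32 to 0.13, limma adjusted p = 0.592), and within slide rows 1 and 2 the difference was -0.07 and 0.03. With row as a block it was -0.02 (limma adjusted p = 0.903), and also -0.02 without pregnant replicate 2. The share of miR-7a in the summed signal differed by -0.462 percentage points (SE 0.596, exact permutation p = 0.486, adjusted p = 0.583), with 0.034 and 0.291 within rows 1 and 2. Leaving out pregnant replicate 2 gave -0.0629 and pregnant replicate 1 gave -0.806, while leaving out control replicate 3 gave -0.148 and control replicate 2 gave -0.741. The share of miR-7a, miR-7a* and miR-7b summed differed by -0.586 percentage points (SE 0.626, exact permutation p = 0.400, adjusted p = 0.583), with -0.041 and 0.184 within rows 1 and 2. Leaving out 1 array moved it between -0.181, without pregnant replicate 2, and -0.943, without pregnant replicate 1.

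In the authors' normalised log2 values miR-7a read 14.18 on all 8 arrays, because these values were given to the arrays by rank and miR-7a held the same rank on each. Those values cannot show a difference in miR-7a. MiR-375 took 3 distinct values there, 13.06 on 4 arrays, 13.16 on 3 and 13.42 on 1.

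MiR-7b, the paralogue with the same seed, was the member with the largest difference. Its normalised signal was 1053, 1054, 1361 and 1078 in control replicates 1 to 4 and 953, 820, 963 and 795 in pregnant replicates 1 to 4. Each pregnant array was lower than each control array, and control replicate 3 stood above the rest. The mean was 1136 ± 150 for control islets against 883 ± 87.5 for pregnancy (SD, n = 4 each). The log2 change was -0.36, a 1.28-fold lower signal (SE 0.11, 95% interval -0.63 to -0.10, limma unadjusted p = 0.0141, adjusted p = 0.121), which did not pass the threshold. Within slide rows 1 and 2 it differed by -0.30 and -0.28, and without control replicate 3 by -0.27 (limma adjusted p = 0.186). Blocking on slide row in limma gave -0.29 (adjusted p = 0.191).

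None of the 4 members passed, where limma called 8 of the 171 miRNAs tested (4.68%), 4 lower and 4 higher in pregnancy (2.34% each). That count was 19 without pregnant replicate 2, from 0 to 2 without any other single array, and 23 with slide row as a block. At an unadjusted p under 0.05 limma passed 1 of the 4 members, miR-7b, and 42 of 171 miRNAs (24.6%). A limma p as small as that of miR-7b or smaller was found for 19 of the 171 (11.1%), miR-7b included. The groups did not overlap for 1 of 4 members against 14.6% of all miRNAs tested, 9.36% with pregnant arrays lower and 5.26% with them higher. A miRNA with the p and the separation of miR-7b was therefore not rare on these arrays.

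**Figure D2:**
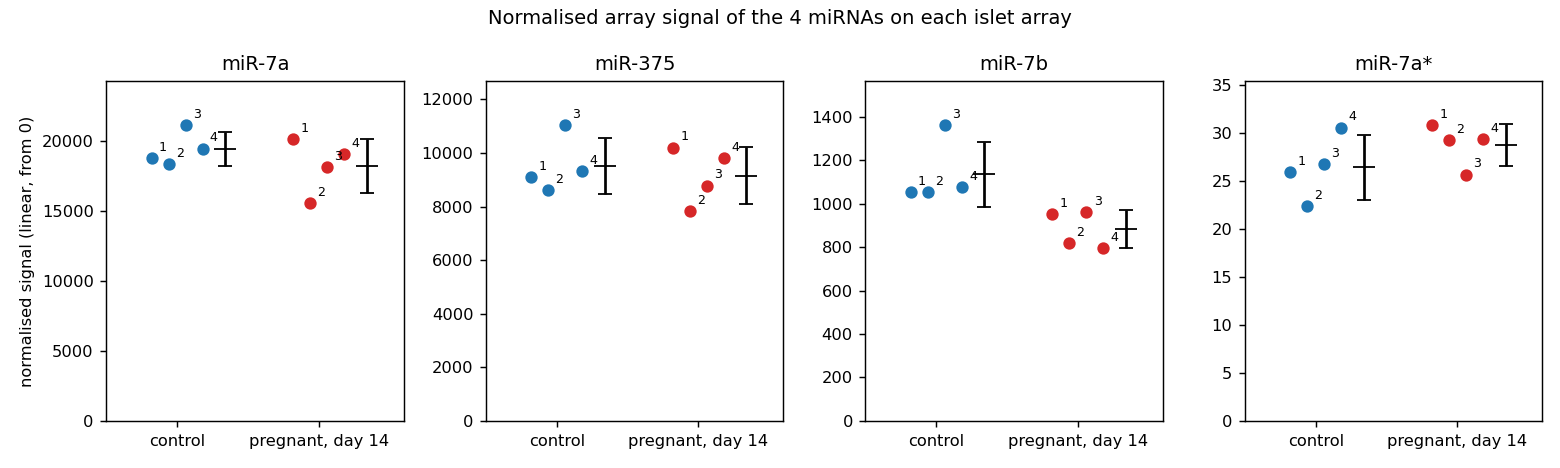
Normalised signal on a linear axis from 0 for each islet array (points, numbered by replicate; blue control, red pregnant), with group mean and SD (black, n = 4). The miR-7b panel shows the 4 pregnant arrays at 795 to 963 below the 4 control arrays at 1053 to 1361, and the groups overlap for the other 3 miRNAs.

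The size of the miR-7b difference depended on the scaling. It was -0.21 when arrays were scaled to the 75th percentile of all miRNAs and -0.19 when scaled to the median of the detected ones, where the median change of all tested miRNAs moved from -0.02 to 0.13 and 0.16. Relative to that median, the change of miR-7b stood at -0.34 in all 3 scalings, miR-7a at -0.08, miR-375 at -0.04 and miR-7a* at 0.15.

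In the order of signals miR-7b exchanged places with miR-107 and miR-30d, but not with miR-30c. In control islets miR-7b exceeded miR-107 and miR-30d on 4 of 4 arrays, and in pregnancy on 0 of 4. The neighbours were chosen by mean signal over the control and pregnant arrays together. For a neighbour that differs little between the groups, the exchange therefore restates the separation of miR-7b and is no further result. How often other miRNAs exchange places in this way was not counted. MiR-30d, a member of the miR-30 family that is abundant in islets, averaged 999 ± 47.7 on control and 1019 ± 42.9 on pregnant arrays, and miR-107 averaged 1028 ± 27.4 and 1055 ± 57.0 (normalised signal, SD, n = 4 each). MiR-7b exceeded miR-30b-5p (980 in the mean) on 4 of 4 control arrays and 1 of 4 pregnant arrays, and miR-30c (1023 in the mean) on 1 of 4 in either group.

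A ratio of 2 miRNAs on the same array does not move with a scaling factor. The miR-7a signal exceeded that of miR-7b by a factor of 17.9, 17.4, 15.5 and 18.04 in control replicates 1 to 4 and 21.1, 19.0, 18.8 and 24.0 in pregnant replicates 1 to 4. All pregnant arrays lay above all control arrays, with pregnant replicate 4 highest. The log2 ratio was 4.10 ± 0.10 for control against 4.37 ± 0.16 for pregnant arrays (SD, n = 4 each), a difference of 0.26 (SE 0.10), which is 1.20-fold. The exact permutation p was 0.0286, the smallest that 4 against 4 arrays can give, and 0.171 adjusted over the 6 ratios and shares, so the difference did not pass. Fitted with limma beside all miRNAs its adjusted p was 0.140 (95% interval 0.03 to 0.49). Within slide rows 1 and 2 the log2 ratio differed by 0.23 and 0.30. Of the ratios of miR-7a to each of the 170 other tested miRNAs, 12.9% did not overlap between the groups and 3.53% were higher on all pregnant arrays.

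**Figure D3:**
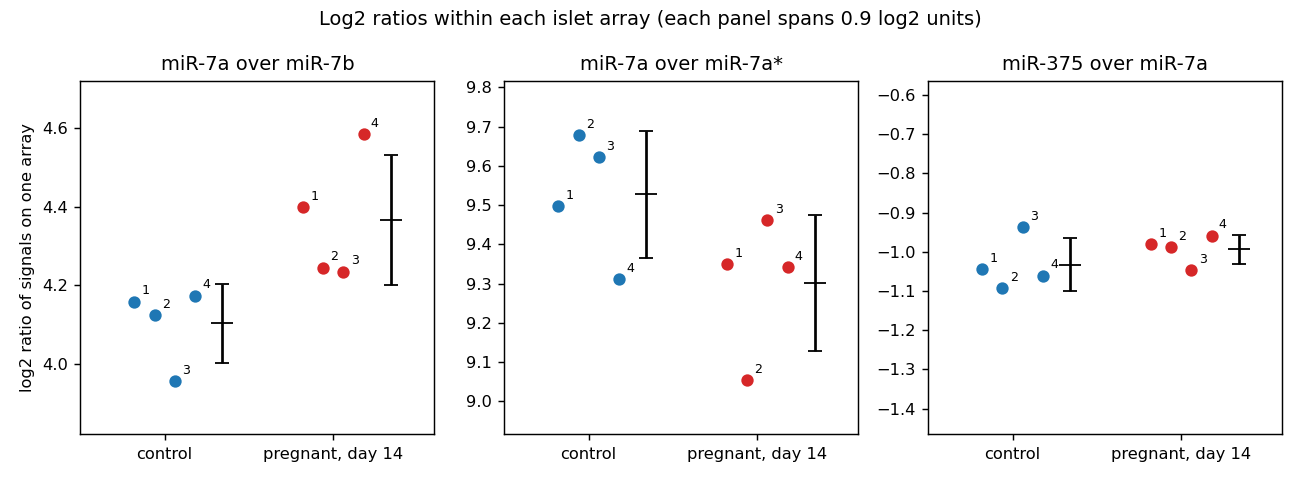
Log2 ratio of 2 miRNA signals on each islet array (points, numbered by replicate; blue control, red pregnant), with group mean and SD (black, n = 4), each panel spanning the same log2 width. For miR-7a over miR-7b the pregnant arrays lie above the control arrays, and for the other 2 ratios the groups overlap. The miR-7a* signal behind the strand ratio is at the level of the negative control features.

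MiR-7a*, the minor strand of the miR-7a hairpins, gave a weak signal. Its normalised signal was 26.0, 22.4, 26.8 and 30.6 in control replicates 1 to 4 and 30.8, 29.3, 25.7 and 29.4 in pregnant replicates 1 to 4. Control replicate 2 was the lowest array, and the groups overlapped. The log2 change was 0.13 (SE 0.11, 95% interval -0.12 to 0.38, limma adjusted p = 0.507), with 0.33 and 0.15 within slide rows 1 and 2. It was 0.05 without control replicate 2, 0.28 with the percentile of all miRNAs, 0.30 with the median of the detected ones and 0.24 after blocking on slide row.

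The measured miR-7a signal was that of miR-7a* multiplied by 723, 820, 788 and 636 in control replicates 1 to 4 and 652, 531, 705 and 649 in pregnant replicates 1 to 4. On 7 of 8 arrays the highest negative control feature exceeded miR-7a*, so these measured ratios are not strand ratios of known size. On those arrays the highest feature was always the one named NegativeControl. On control replicates 1 and 4 and pregnant replicate 4 it was the only feature above miR-7a*. The miR-7a signal was also set against the higher of miR-7a* and the highest feature of each array. It was higher by factors of 556, 333, 788 and 440 in control replicates 1 to 4. In pregnant replicates 1 to 4 the factors were 321, 260, 243 and 359. These are quotients of signals of different probes and not bounds on a ratio of molecules. The measured log2 ratio was 9.53 ± 0.16 for control against 9.30 ± 0.17 for pregnant arrays (SD, n = 4 each), and control replicate 4 lay among the pregnant arrays. The difference of -0.23 (SE 0.12, exact permutation p = 0.143, adjusted p = 0.429) did not pass, and within rows 1 and 2 it was -0.39 and -0.13. Without pregnant replicate 2 it was -0.14. With miR-7a* at this level no direction of the strand ratio is read from these values.

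The miR-7a* signal was of the size of the array's 7 negative control features, although it was flagged as detected on all arrays. On each array, between 0 and 6 of the 7 features exceeded miR-7a* on the control arrays and between 1 and 4 on the pregnant arrays. In unscaled signal the median of the features was 13.1 to 22.6 on control arrays and 20.9 to 28.7 on pregnant arrays, and the highest of them 20.1 to 45.9 and 54.2 to 65.7. The highest feature was thus brighter on each pregnant array than on any control array, while the medians overlapped. On all pregnant arrays it was the feature named NegativeControl, as on control replicates 1, 2 and 4, so this difference rests on 1 feature. The part of this background in the miR-7a* values and in the strand ratio was not tested. No negative control feature reached miR-7b on any array.

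Within the groups the members varied about as much as other miRNAs. The pooled SD of the log2 signal was 0.13 for miR-7a, 0.15 for miR-7a* and 0.16 for miR-7b and for miR-375, against a median of 0.17 over the 171 miRNAs tested. MiR-375 and miR-7a varied together between arrays. On the log2 scale their signals correlated at Pearson's r of 0.94 and Spearman's rho of 0.95 over the 8 arrays, 0.89 without the 2 arrays farthest from the median of miR-7a, 0.96 after subtracting group means and 0.90 after subtracting slide row means. The arrays share the scaling factor, so the correlation is given as a description. Of the 170 other tested miRNAs, miR-7a was the one most like miR-375, followed by miR-99b (r = 0.91) and miR-29c (r = 0.85). The ones most like miR-7a were miR-29c (r = 0.95), miR-375 and miR-29c* (r = 0.86).

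The log2 ratio of miR-375 to miR-7a had an SD of 0.05 over the 8 arrays, against 0.15 for miR-375 and 0.13 for miR-7a. The ratio was 0.485, 0.469, 0.522 and 0.479 in control replicates 1 to 4 and 0.507, 0.504, 0.484 and 0.515 in pregnant replicates 1 to 4. The groups overlapped, and the log2 difference was 0.04 (SE 0.04, exact permutation p = 0.371, adjusted p = 0.583; 95% interval -0.10 to 0.18 in the limma fit), with 0.09 and 0.03 within rows 1 and 2.

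**Figure D4:**
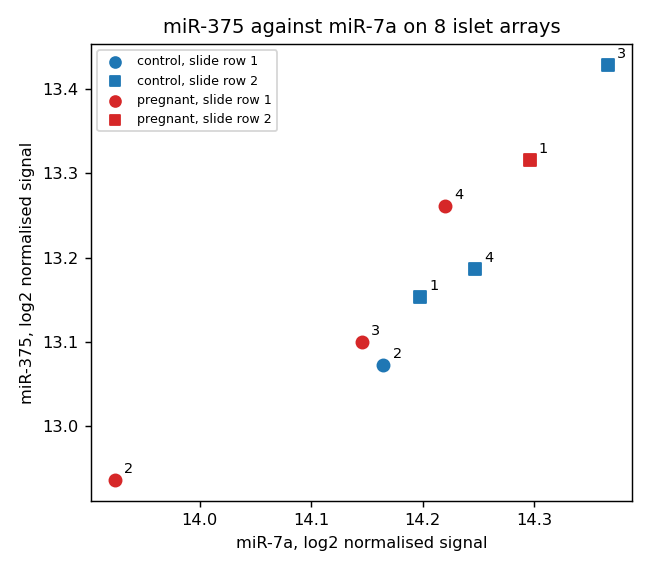
Log2 normalised signal of miR-375 (vertical) against miR-7a (horizontal) on the 8 islet arrays, coloured by group, shaped by slide row as read from the array names and numbered by replicate. The arrays follow one line, with pregnant replicate 2 lowest and control replicate 3 highest for both miRNAs.

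MiR-7b did not follow them as closely. It correlated with miR-7a at r = 0.64 (rho = 0.43) and with miR-375 at r = 0.53 (rho = 0.24). Among the 170 miRNAs compared by r it still ranked 12 in likeness to miR-7a and 14 in likeness to miR-375. The miRNAs most like miR-7b were miR-324-3p (r = 0.84), miR-29a and let-7i (r = 0.80 each). MiR-7a* was most like miR-33 (r = 0.91), miR-340-5p (r = 0.86) and miR-153 (r = 0.84), and correlated with its own guide strand at r = 0.07 (rho = 0.52).

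Among the other islet and neuroendocrine miRNAs, 18 were on the array and 10 were tested. Of these 0 rose, 2 fell and 8 did not pass, where 2.34% of all 171 miRNAs rose and 2.34% fell. The median log2 change was -0.11 against -0.02 over all 171 miRNAs. The list was chosen with earlier results of these data known, so its count is no independent result on such miRNAs. MiR-338, an intronic miRNA of Aatk, fell by 1.13 on the log2 scale, with SE 0.18 and a limma adjusted p of 0.0204. MiR-335, an intronic miRNA of Mest, fell with a log2 change of -0.74, with SE 0.15 and a limma adjusted p of 0.0430. Leaving out single arrays ended both calls for control replicates 1, 2 and 4 and pregnant replicates 1, 3 and 4, with adjusted p-values of up to 0.0752 and 0.0930, and the call of miR-335 also for control replicate 3. Of the 5 epithelial miR-200 family members 0 passed, with a median of -0.12; those of smallest p were miR-200b with a log2 change of -0.29 and SE 0.13 (limma adjusted p = 0.212), and miR-141 with 0.12 and SE 0.07 (limma adjusted p = 0.296). The 8 untested neuroendocrine miRNAs, among them miR-9, miR-124 and miR-184, were detected on 0 arrays except miR-212, detected on 1.

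Markers of other cell types differed between the arrays beside these values. The 10 stromal and smooth muscle miRNAs on the array, 6 detected on all arrays, reached a summed normalised signal of 3414 to 9376 on control and 2506 to 3353 on pregnant arrays, lower on each pregnant array, as for miR-7b. Within the controls this sum was highest in replicate 2 and lowest in replicate 3, where miR-7b was highest. The acinar miR-216a, 1 of 2 acinar miRNAs, ran from 114 to 312 on control and from 25.9 to 242 on pregnant arrays, and the acinar miR-217 was detected on 0 arrays. The erythroid pair miR-144 and miR-451 summed to 266 to 732 and 651 to 1653, and the 2 strands of the endothelial miR-126 to 1662 to 1776 and 1247 to 1736. The 8 leukocyte miRNAs, 6 detected on all arrays, summed to 871 to 1128 in control islets and 696 to 5502 in pregnancy, the last in pregnant replicate 2, where miR-7a and miR-375 were lowest. The liver miR-122 was detected on 0 arrays. The part of these cells in the values of miR-375 and miR-7 was not tested, and in whole islets fewer cells of a type and less RNA per cell cannot be told apart.

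**Figure D5:**
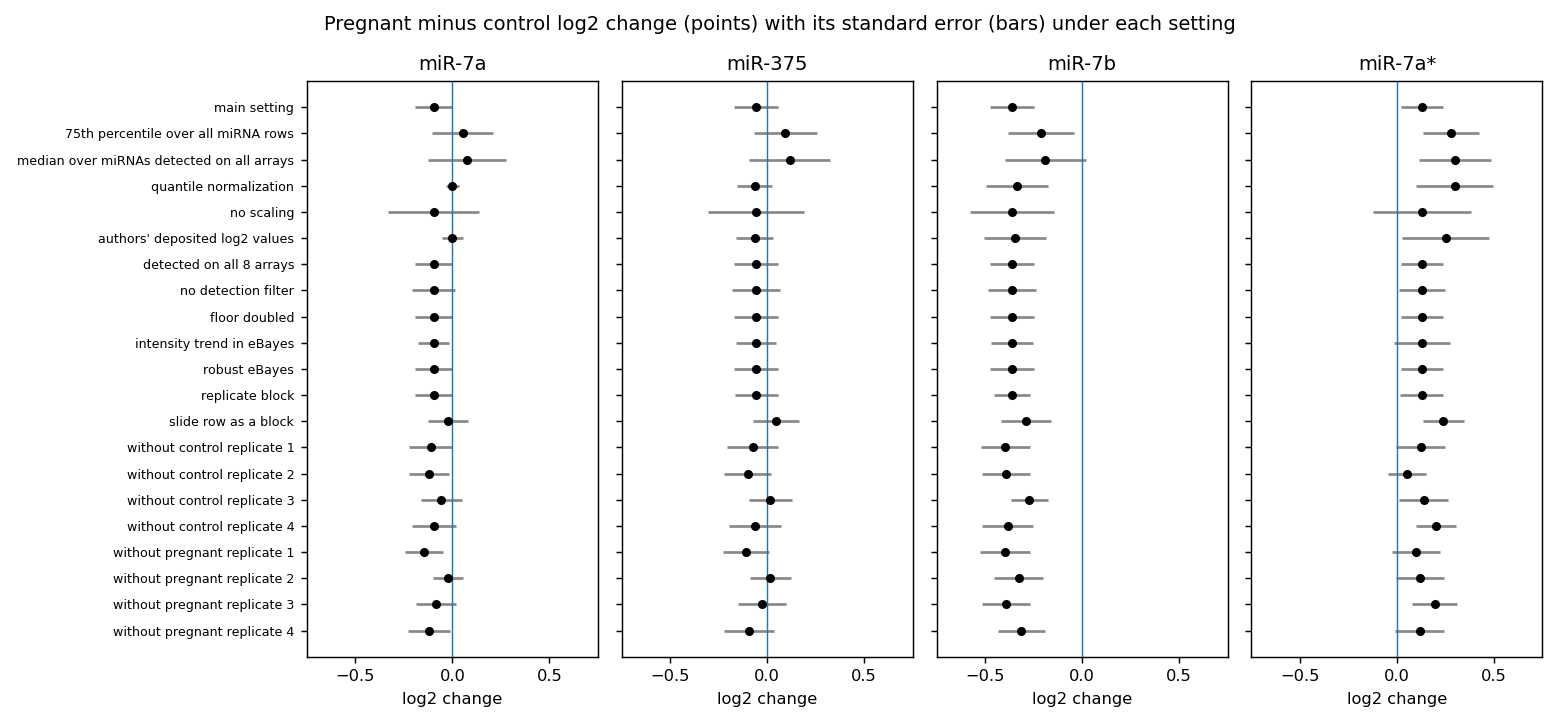
Pregnant minus control log2 change (points) with its standard error (bars) for each of the 4 miRNAs under the main setting and 20 alternatives, with a line at 0. MiR-7b stays between -0.40 and -0.19 and miR-7a* between 0.05 and 0.30, while miR-375 and miR-7a fall on either side of 0.

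Over all 20 alternatives the miR-7b change stayed negative, from -0.40 to -0.19, with limma adjusted p-values from 0.0868 to 0.648, and none passed. MiR-7a* stayed positive, from 0.05 to 0.30. MiR-375 ran from -0.11 to 0.12 and miR-7a from -0.14 to 0.07, and neither passed under any of them. The positive values of miR-7a came with the 2 scalings that moved the median of all tested miRNAs. Relative to that median miR-7a was at -0.08, which scaling by 1 factor per array cannot change.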

How the data were processed

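MiRNA levels were measured in 4 control and 4 day 14 pregnant islet samples. Per the file headers, the authors deposited an unnormalized signal intensity per miRNA and a detection flag, with a lowest value of 1, and log2 values normalized between arrays. The 50 highest sorted log2 values are the same on all 8 arrays. For scanner and software, the sources used here give no entry. Flags were assigned to arrays by the header line above them, and each flag column was best matched by the signals of its own array (8 of 8).

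The 22 control features were left out. Intensities were divided by the 75th percentile of each array's 153 miRNAs that were detected throughout (factors 0.770 to 1.23 of their mean), floored at 0.810, the lowest detected normalised signal, and log2 transformed. MiRNAs detected on at least 4 arrays were tested with limma 3.58.1 in R 4.3.3, without a block. Ratios and shares used unscaled intensities and 2-sided exact permutation tests (scipy 1.17.1 as a check), adjusted together. The number of arrays limits the precision. The limma step was tested on simulated data. The permutation test was checked on fixed values of known answer and against scipy on the ratio of miR-7a to miR-7b. Replicate numbers did not pair the arrays.

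Members and lists were chosen with earlier results of these data known. Named miRNAs are the members, their neighbours in the order of signals, the 3 most alike over the 8 arrays, and the 2 of smallest p per list. Alternatives were other scalings, the authors' values, other filters, floors and variance priors, blocks, other denominators and leaving out each array.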

Additional observations from a re-analysis of the deposited data

Results flagged for a closer look

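MiR-7b in control replicate 3 stood apart from the other control arrays, with a log2 normalised signal of 10.41 where these read 10.04, 10.04 and 10.07. The gap was 0.908 of the whole range of the group, above Dixon's critical value for 4 values at the 95% level. Among the 20 groups of values screened in this way, chance flags about 1. MiR-375 and miR-7a were also highest on that array, without passing the limit.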

How the results depend on the processing

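The changes of miR-7b and miR-7a*, the ratio of miR-7a to miR-7b and the strand ratio kept their direction under all alternatives run and passed the threshold under none, as in the reported setting. MiR-375 turned to 0.0934 and miR-7a to 0.0529 with the percentile of all miRNAs. With the median of the detected ones they turned to 0.12 and 0.0748. These scalings moved the median of all tested miRNAs to 0.13 and 0.16. Relative to it miR-375 was at -0.04 and miR-7a at -0.08, which scaling by 1 factor per array cannot change. MiR-375 also turned to 0.0432 when slide row was a block, where its share turned to 0.292, that of miR-7a to 0.162 and that of summed miR-7 to 0.0715 percentage points. The log2 ratio of miR-375 to miR-7a turned to -0.0648 with the authors' values and with quantile normalization, which fix miR-7a at 1 value. Leaving out 1 array, miR-375 ran from -0.11 to 0.016, its share from -0.305 to 0.175 percentage points, both turning positive without control replicate 3 or pregnant replicate 2, miR-7a from -0.14 to -0.0234, its share from -0.806 to -0.0629, that of summed miR-7 from -0.943 to -0.181, and the count of called miRNAs from 0 to 19. That count was 8 as reported, 2 with either of the percentile of all miRNAs and the median scaling, 0 without scaling or without the detection filter (350 miRNAs tested), and 23 when slide row was a block; the causes were not tested. The replicate numbers gave correlations of deviations from -0.49 to 0.17 for same-numbered arrays, 0 of 4 control arrays correlating best with their own number, so they do not pair the arrays; with the replicate block miR-7b was -0.36 (limma adjusted p = 0.0868), the count 10, and the exact p of the miR-7a to miR-7b ratio 0.125, the smallest such a block can give. Of the miRNAs that fell, miR-338 missed the threshold under 8 and miR-335 under 14 of 20 alternatives, both keeping their direction. MiR-7a* lay near the negative control features, which limits what its values can show.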
